A study of Mus musculus with 6 samples.

Results

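Wide binding regions of tagged thyroid hormone receptor β1 (TRβ1) in mouse liver are described here, taken as every called peak of 600 bp or more on chromosomes 1 to 19. There were 581 such peaks among 45406 in livers injected with triiodothyronine (T3), and 1320 among 51297 in livers injected with saline, so 1901 regions in all out of 98191 peaks in the 3 deposited lists. The members were chosen by their measured width, in each list separately, and the number and width of wide peaks are therefore given as a description. Overlap with the other list, score, position and presence in control livers were not part of the choice.

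TRβ1 is a nuclear receptor that usually sits on DNA as a heterodimer with the retinoid X receptor. It stays on chromatin without hormone, where it recruits the NCoR and SMRT corepressors, and binding of T3 exchanges these for coactivators. In the liver the receptor controls genes of lipid, cholesterol and carbohydrate metabolism. In ChIP-seq, a peak is a stretch of genome covered by more captured fragments than the background, so a peak can be wide because several binding sites lie close together, because the enrichment is strong enough for its edges to be called, or because the enrichment is spread out.

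All mice were heterozygous for the biotin ligase BirA, were 9 to 10 weeks old, and ate a diet with propylthiouracil (PTU), which blocks thyroid hormone synthesis, for 3 weeks. An adenovirus was then given through the tail vein, and saline or T3 was injected into the peritoneum for 4 days. The group called TRb T3 received virus for GFP and biotinylated TRβ1 and then T3, the group called TRb PTU received the same virus and then saline, and the control group called GFP PTU received virus for GFP alone and then saline. The tagged receptor was thus supplied by virus, on top of the animals' own receptor, and the sources used here do not give the number of livers behind a library. Each condition had 1 library, so no difference between conditions was tested, and intervals below are exact (Clopper-Pearson) 95% binomial intervals over peaks that cover counting error only. The depth behind the lists is unknown, and the effect of depth on width or number cannot be told apart from that of the hormone.

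Wide peaks were less common with T3. They made up 1.28% of TRb T3 peaks (interval 1.18 to 1.39%) and 2.57% of TRb PTU peaks (interval 2.44 to 2.71%), so the share with T3 was 0.497 times that with saline. They held 4.17% of the bases covered by TRb T3 peaks and 7.54% of those covered by TRb PTU peaks. The whole list was also narrower, with a median width of 193 bp in TRb T3 and 210 bp in TRb PTU. Among the wide peaks themselves the widths were alike, with a median of 686 bp (quartiles 636 and 780 bp) in TRb T3 and 686.5 bp (quartiles 632 and 781 bp) in TRb PTU. In TRb T3, 458 measured 600 to 799 bp, 91 measured 800 to 999 bp and 32 measured 1000 bp or more. In TRb PTU these classes held 1032, 222 and 66 peaks. The line at 600 bp divides a continuous distribution. The 5 peaks just inside it measured 600 bp and the 5 just outside 599 bp in both lists, and 44 TRb T3 and 108 TRb PTU peaks measured 600 to 609 bp, against 59 TRb T3 and 91 TRb PTU peaks of 590 to 599 bp. The 581st widest TRb PTU peak was 707 bp wide.

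**Figure D1:**
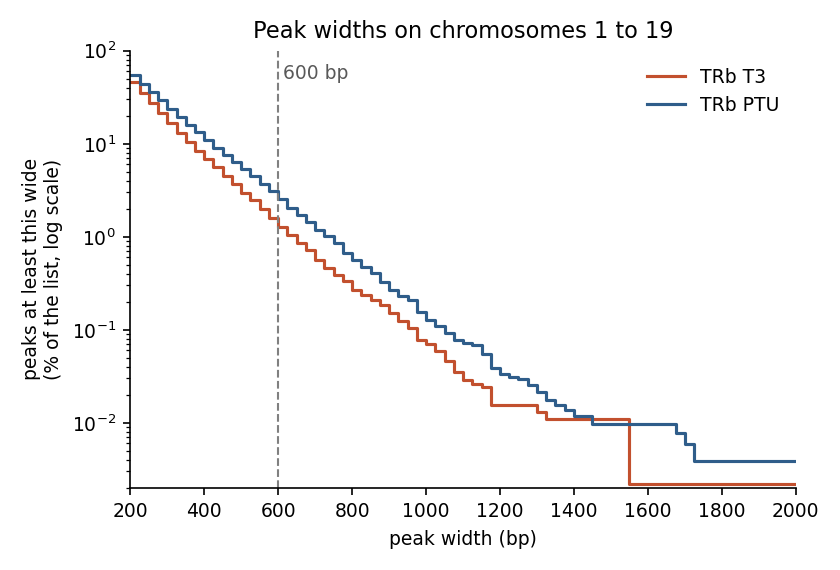
Share of each list (percent, log scale) made up of peaks at least as wide as the value on the horizontal axis (bp), for TRb T3 and TRb PTU peaks on chromosomes 1 to 19. At the dashed line at 600 bp the curves stand at 1.28% for TRb T3 and 2.57% for TRb PTU, and the TRb T3 curve lies lower from 200 to 1400 bp.

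Most wide regions were called in both hormone states. A TRb PTU peak overlapped 537 of the 581 wide TRb T3 peaks by at least 1 bp (92.4%, interval 90.0 to 94.4%), against 61.1% of the narrower TRb T3 peaks and 61.5% of all. In the other direction, a TRb T3 peak overlapped 1136 of the 1320 wide TRb PTU peaks (86.1%, interval 84.1 to 87.9%), against 53.1% of the narrower TRb PTU peaks and 53.9% of all. A wide peak offers more bases for an overlap, so the distance between midpoints was measured as well. A midpoint of the other list lay within 200 bp for 83.0% of wide TRb T3 peaks (interval 79.7 to 85.9%), against 60.0% of the narrower ones and 60.3% of all. It did so for 72.5% of wide TRb PTU peaks (interval 70.0 to 74.9%), against 52.7% of the narrower ones and 53.2% of all. These shares are not matched by score, and within many score deciles the order was the reverse, as given below.

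By width class, the overlapped share was higher in each wider class up to 599 bp, from 41.8% for TRb T3 peaks under 150 bp to 91.3% at 500 to 599 bp. It then stood at 92.4% at 600 to 799 bp, 92.3% at 800 to 999 bp and 93.8% at 1000 bp or more. For TRb PTU it was 31.3% under 150 bp, 79.4% at 500 to 599 bp, 85.2% at 600 to 799 bp, 90.1% at 800 to 999 bp and 86.4% at 1000 bp or more. In each list the intervals of the 3 wide classes overlap. The midpoint measure went the other way within the wide classes. It was 86.0, 73.6 and 65.6% in the 3 TRb T3 classes in order of width, and 76.3, 62.2 and 48.5% in the 3 TRb PTU classes.

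**Figure D2:**
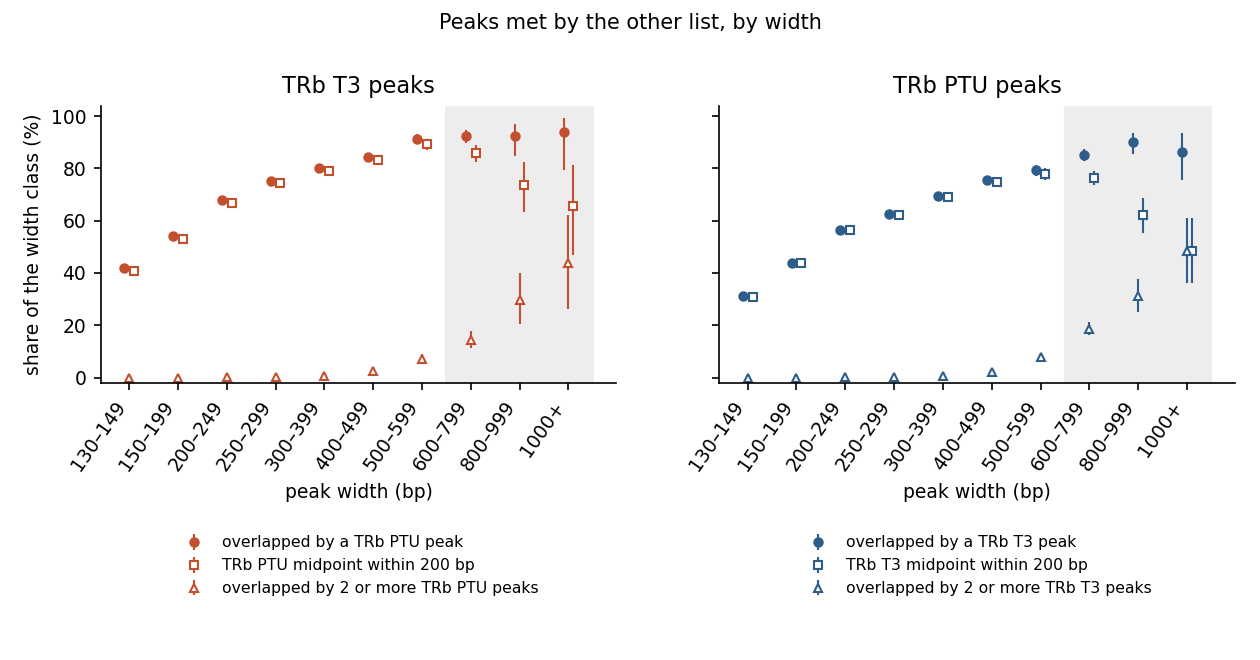
Share of peaks in each width class (percent, with exact 95% binomial intervals) that were overlapped by the other list, that had a midpoint of the other list within 200 bp, or that were overlapped by 2 or more of its peaks, for TRb T3 (left) and TRb PTU (right). In the shaded wide classes the overlapped share stays between 85.2 and 93.8%, while the share met by 2 or more peaks reaches 43.8% in TRb T3 and 48.5% in TRb PTU.

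Wide peaks were highly scored within their own list. The score is the value the authors' peak caller gave each peak, and it is used here only to rank peaks within a list. Wide TRb T3 peaks had a median score percentile of 91.5 (interval 90.7 to 92.6) and 329 of 581 were in the top decile of the list (56.6%). Wide TRb PTU peaks had a median percentile of 87.4 (interval 86.4 to 88.7) and 585 of 1320 were in the top decile (44.3%). Width and score were linked across all peaks, with a Spearman coefficient of 0.67 over 45406 TRb T3 peaks and 0.63 over 51297 TRb PTU peaks. Among wide peaks alone it was 0.12 in TRb T3 and 0.14 in TRb PTU, and both measures come from the same reads of 1 library. High score did not require great width: of the 100 highest-scored peaks, 18 were wide in TRb T3 and 19 in TRb PTU.

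Compared within a score decile, the order of wide and narrower peaks depended on how a match was defined. By an overlap of at least 1 bp, for which a wide peak offers more bases, wide peaks were met at least as often as narrower ones in the eighth to top deciles. In the top score decile of TRb T3 the share was 94.5% of 329 wide peaks (interval 91.5 to 96.7%), against 91.1% of 4217 narrower peaks (interval 90.2 to 92.0%). In the ninth decile it was 93.8% of 130 wide peaks (interval 88.2 to 97.3%), against 81.5% of the narrower ones (interval 80.3 to 82.6%). In TRb PTU the top decile gave 97.3% of 585 wide peaks (interval 95.6 to 98.4%), against 94.1% of the narrower ones (interval 93.4 to 94.8%), and the ninth decile gave 92.6% of 272 (interval 88.9 to 95.5%), against 84.9% (interval 83.9 to 85.9%). The eighth TRb PTU decile showed no such gap, with 74.0% of 208 wide peaks (interval 67.5 to 79.9%) and 73.9% of the narrower ones. By midpoints within 200 bp the order in the top decile was the reverse, at 83.9% of wide (interval 79.5 to 87.7%) against 90.1% of narrower TRb T3 peaks (interval 89.2 to 91.0%). The TRb PTU shares there were 85.5% of wide (interval 82.4 to 88.2%) against 93.6% of narrower peaks (interval 92.8 to 94.3%). A partner inside a wide peak can lie more than 200 bp from its middle, so the midpoint measure disfavours wide peaks. In the ninth decile the midpoint shares were 85.4% of wide against 80.6% of narrower TRb T3 peaks, and 79.4% of wide against 84.5% of narrower TRb PTU peaks. In the eighth they were 86.2% of wide against 74.5% of narrower TRb T3 peaks, and 61.5% of wide against 73.6% of narrower TRb PTU peaks. Wide peaks of low score were few. At or below the median score there were 15 in TRb T3, of which 11 were overlapped (73.3%, interval 44.9 to 92.2%), against 47.3% of narrower TRb T3 peaks in that range. In TRb PTU there were 82, of which 36 were overlapped (43.9%, interval 33.0 to 55.3%), against 33.9% of narrower TRb PTU peaks.

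**Figure D3:**
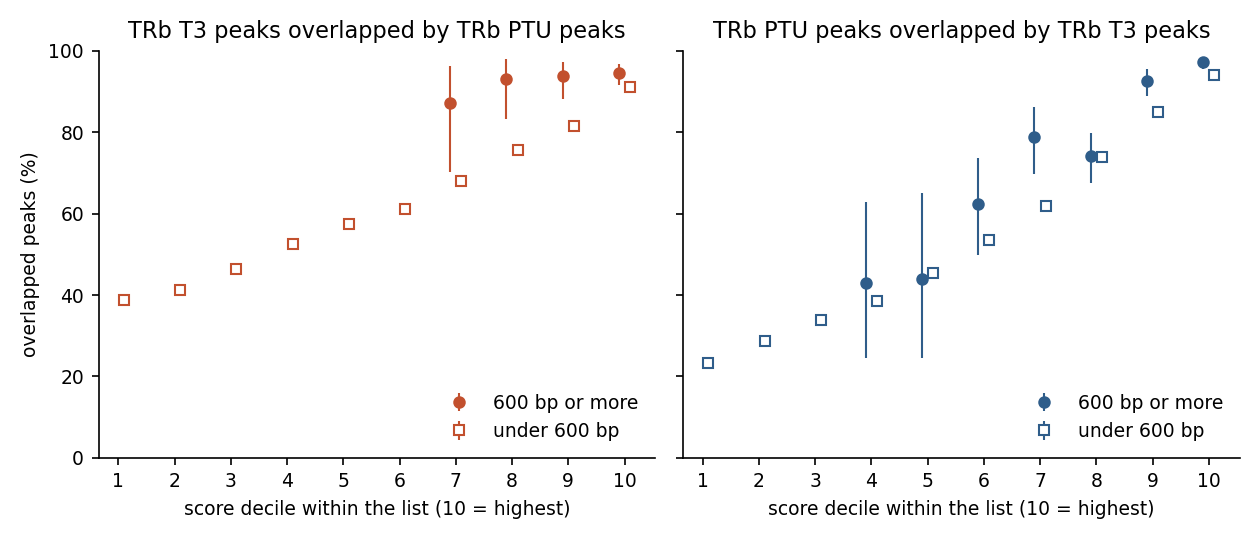
Share of peaks overlapped by the other list by at least 1 bp (percent, with exact 95% binomial intervals) by score decile within the list, for peaks of 600 bp or more (filled) and under 600 bp (open). Wide points are drawn for deciles with at least 25 wide peaks. In the top decile they stand at 94.5% against 91.1% in TRb T3 and at 97.3% against 94.1% in TRb PTU.

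The site was mostly shared, the width only in part. Of the 581 wide TRb T3 peaks, 213 met a TRb PTU peak that was wide too (36.7%, interval 32.7 to 40.7%), 324 met only narrower TRb PTU peaks and 44 met none. Of the 1320 wide TRb PTU peaks, 212 met a wide TRb T3 peak (16.1%, interval 14.1 to 18.2%), 924 met only narrower ones and 184 met none. Both shares count nearly the same overlaps, 213 and 212, so the gap between them follows from the unequal numbers of wide peaks. With the 581 widest TRb PTU peaks in place of all 1320, a choice made after seeing the data, the shares were 20.5% in TRb T3 and 20.3% in TRb PTU. Equal numbers make these shares nearly equal by construction, so no conclusion about the lists is drawn from them. As background, a wide peak of the other list overlapped 3.18% of all TRb T3 peaks and 1.27% of all TRb PTU peaks. The widest partner of an overlapped wide TRb T3 peak had a median width of 544 bp in TRb PTU (quartiles 330 and 683 bp). The widest partner of an overlapped wide TRb PTU peak had a median width of 334.5 bp in TRb T3 (quartiles 213 and 554 bp). Partners under 300 bp were all that 111 wide TRb T3 peaks (19.1%) and 496 wide TRb PTU peaks (37.6%) met.

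The 2 lists were set side by side at single pairs, in which each peak overlapped 1 peak of the other list. Of 1061 such pairs with at least 1 wide peak, 195 were wide in both, 225 in TRb T3 alone and 641 in TRb PTU alone. The pairs wide in TRb T3 alone had median widths of 658 bp in TRb T3 and 405 bp in TRb PTU, and those wide in TRb PTU alone had 284 bp in TRb T3 and 673 bp in TRb PTU. Choosing a pair for a wide peak in 1 list fixes which side is wider, so pairs were also chosen by the mean of both widths, which treats the lists alike. Among the 371 pairs with a mean of 600 bp or more, the median width was 657 bp in TRb T3 and 716 bp in TRb PTU, and the TRb T3 peak was the wider in 142 (38.3%) and the TRb PTU peak in 228 (61.5%). Over all 26670 single pairs the TRb T3 peak was the wider in 39.6% and the TRb PTU peak in 59.7%, a share close to that of the wide pairs.

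**Figure D4:**
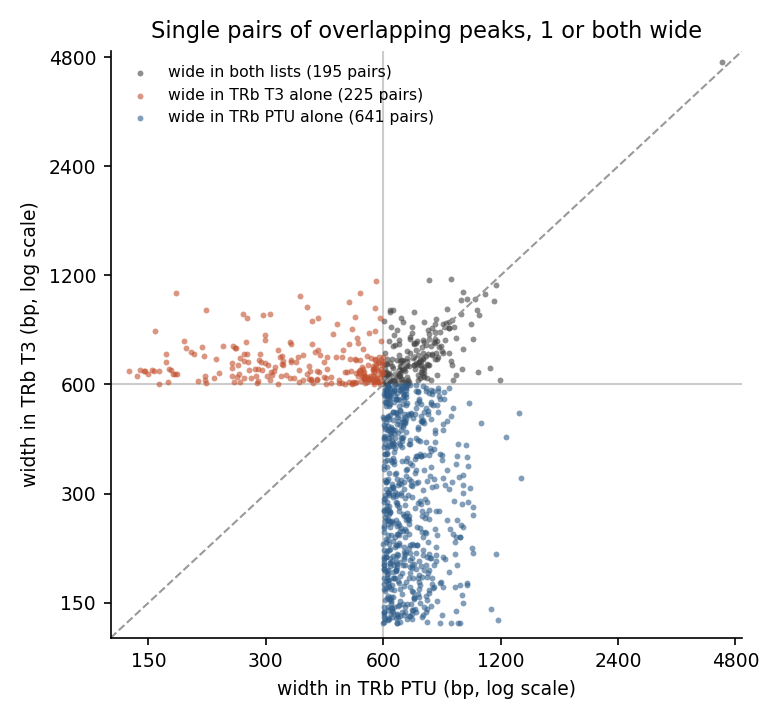
Width in TRb T3 (vertical, bp, log scale) against width in TRb PTU (horizontal, bp, log scale) for the 1061 single pairs with at least 1 wide peak; each point is a pair, the dashed line marks equal widths and the grey lines 600 bp. The 641 pairs wide in TRb PTU alone run down to TRb T3 widths of 132 bp, while 195 pairs lie above both grey lines.

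The place of single partners within the wide peak was measured as well. Of the 430 wide TRb T3 peaks with a single partner, 223 contained it whole (51.9%), and of the 843 such wide TRb PTU peaks, 649 did (77.0%). The partner was the narrower of the pair in 71.9% of these TRb T3 peaks and 89.1% of these TRb PTU peaks. The choice of members by width favours a narrower and contained partner, so these shares are given as a description. The midpoint of the partner lay a median of 14.1% of the way from the middle to the edge of the wide peak in TRb T3, and 23.9% in TRb PTU. It lay more than 50% of the way in 13.0% of the 430 TRb T3 peaks and 22.3% of the 843 TRb PTU peaks. The wide TRb T3 peaks had a median width of 678 bp and their partners 589 bp. The wide TRb PTU peaks had 681 bp and their partners 384 bp. A partner that fills much of the wide peak cannot lie far from its middle, so these widths set much of the positions. Where the partner lay inside and measured under 300 bp, the wide TRb T3 peak ran past it by a median of 369 bp on whichever side was longer and 70 bp on the other (63 peaks). The wide TRb PTU peak ran past such a partner by 392 and 81 bp (320 peaks).

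Other wide peaks were split in the opposite hormone state. Of the wide TRb T3 peaks, 107 met 2 or more TRb PTU peaks (18.4%, interval 15.3 to 21.8%), against 0.529% of all TRb T3 peaks. Of the wide TRb PTU peaks, 293 met 2 or more TRb T3 peaks (22.2%, interval 20.0 to 24.5%), against 0.988% of all TRb PTU peaks. A peak must be fairly wide to span 2 others, so the choice by width sets much of these gaps. At 500 to 599 bp, just below the line, the shares were 6.98% in TRb T3 and 8.01% in TRb PTU, while at 150 to 199 bp 0 TRb T3 and 2 TRb PTU peaks met 2 or more. As many as 3 partners were met by 7 wide TRb T3 and 15 wide TRb PTU peaks. The closest neighbouring partners lay a median of 396 bp apart, midpoint to midpoint, within wide TRb T3 peaks (quartiles 345.5 and 479 bp) and 382.5 bp within wide TRb PTU peaks (quartiles 332 and 458.5 bp). The unoccupied stretch between them had a median of 103 bp in TRb T3 peaks and 130 bp in TRb PTU peaks. No peaks of one list lay closer than 51 bp to each other in either TRβ1 list, so stretches shorter than that never separate calls.

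The highest-scored wide regions were shared ones, as were most high-scored peaks of any width. All 10 of the highest-scored wide TRb T3 peaks met a TRb PTU peak, which was wide in 5 cases, and all 10 of the highest-scored wide TRb PTU peaks met a TRb T3 peak, which was wide in 6. As background, 91.1% of narrower TRb T3 and 94.1% of narrower TRb PTU peaks in the top score decile were overlapped. Coordinates are on mm9 and counted from 1. On chromosome 5, the peak at 122448749 to 122449714 in TRb T3 was 966 bp wide (score 374.95) and ran beyond its TRb PTU partner at 122448753 to 122449387, which was 635 bp wide (score 478.5) and the highest-scored wide peak of that list. On chromosome 8, the TRb T3 peak at 118243029 to 118244059 measured 1031 bp and its TRb PTU partner 1029 bp, nearly the same extent. On chromosome 17, a site was 678 bp wide in TRb T3 (28897693 to 28898370) and 781 bp wide in TRb PTU (28897683 to 28898463), and it also met a GFP PTU peak.

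Some strong wide peaks met only partners much narrower than themselves, whose scores ranged from low to high. The TRb T3 peak on chromosome 11 at 79576717 to 79577507 was 791 bp wide with a score of 379.2, at percentile 99.96 of its list. Its TRb PTU partner was 185 bp wide with a score of 25.4, at percentile 59.7. On chromosome 4, the TRb T3 peak at 19238131 to 19239095 was 965 bp wide and its TRb PTU partner 211 bp, at percentile 93.6. In the opposite direction, the TRb PTU peak on chromosome 11 at 96798924 to 96799988 was 1065 bp wide (score 339.6) and met TRb T3 peaks of 225 and 356 bp, at percentiles 14.0 and 97.2.

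The 10 widest regions of each list covered a broad range of scores, from percentile 60.0 to 99.4 in TRb T3 and from 0.337 to 99.7 in TRb PTU. The single widest in both lists was the same place on chromosome 1, 4658 bp in TRb T3 (24618366 to 24623023) and 4436 bp in TRb PTU (24618393 to 24622828). It stood at score percentile 83.1 in TRb T3 and 0.337 in TRb PTU, and it met GFP PTU peaks. Next in TRb T3 was a peak of 1536 bp on chromosome 17 (11520692 to 11522227), met by TRb PTU peaks of 244 and 1074 bp. It was followed by one of 1532 bp on chromosome 12 (114662245 to 114663776) at percentile 99.4, which met only TRb PTU peaks of 134 and 223 bp, at percentiles 7.28 and 0.795. The fifth, 1529 bp on chromosome 6 (112174461 to 112175989), had no TRb PTU partner, and the nearest was 13587 bp away.

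In TRb PTU the second widest, 3512 bp on chromosome 14 (18758888 to 18762399), met GFP PTU peaks and TRb T3 peaks of only 158 and 171 bp. The third, 1705 bp on chromosome 19 (23208906 to 23210610), met 3 TRb T3 peaks of 334, 141 and 438 bp. The fourth, 1694 bp on chromosome 8 (129259518 to 129261211), spanned 2 TRb T3 peaks of 780 and 682 bp, both wide themselves. The seventh, 1392 bp on chromosome 17 (39982898 to 39984289), had no partner, and the nearest TRb T3 peak was 917492 bp away. It belonged to a run of 7 TRb PTU peaks between 39980064 and 39985761, a window chosen after its values were seen, of which 4 were wide and 0 were overlapped, with scores from 4.57 to 24.6.

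**Figure D5:**
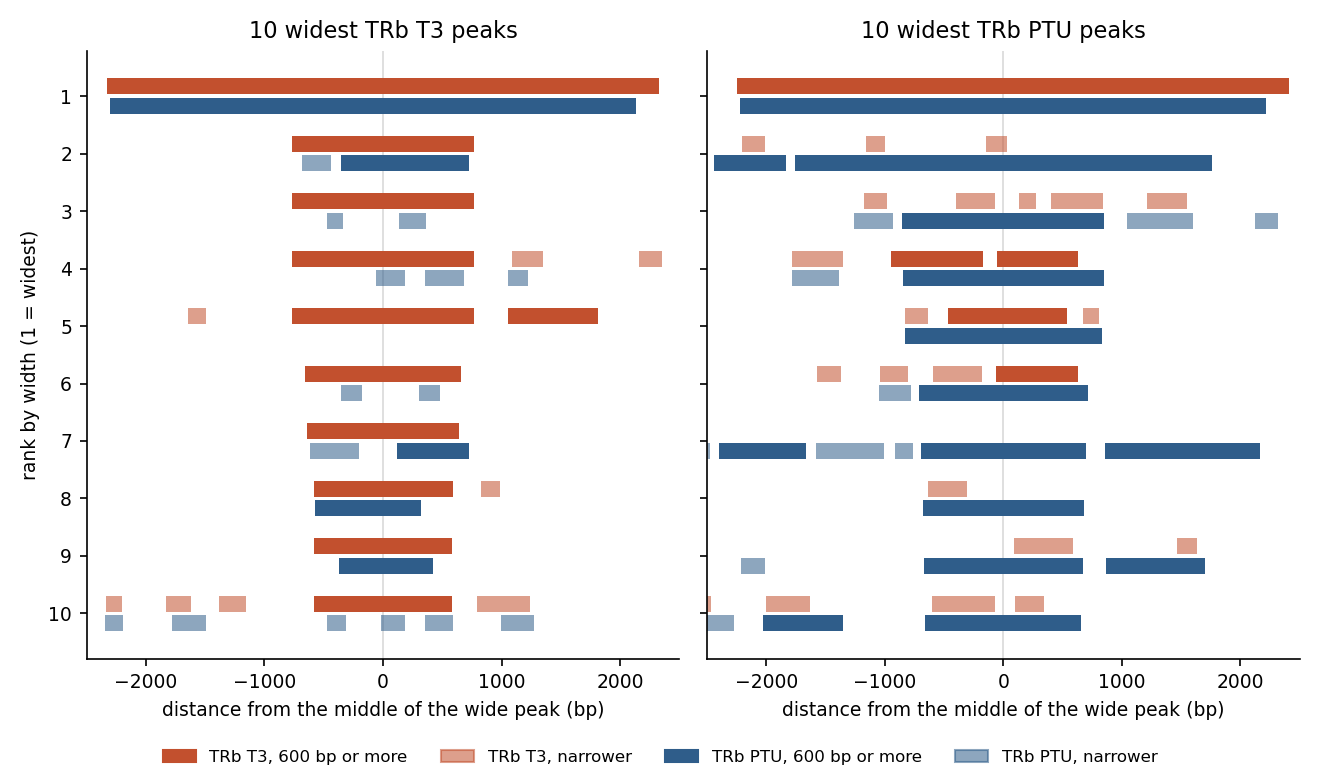
The 10 widest TRb T3 peaks (left) and the 10 widest TRb PTU peaks (right), 1 row each by rank, drawn to scale around the middle of the wide peak (distance in bp), with all TRb T3 peaks in the upper and all TRb PTU peaks in the lower line of a row. Dark bars are 600 bp or more and pale bars narrower. In each panel 9 of the 10 meet a peak of the other list, and many of those partners are pale bars covering only a piece of the wide peak.

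Wide peaks with no partner were 44 in TRb T3 (7.57%, interval 5.56 to 10.0%) and 184 in TRb PTU (13.9%, interval 12.1 to 15.9%). As background, 61.5% of all TRb T3 and 53.9% of all TRb PTU peaks had a partner, and the rest had none. In TRb T3 their median score percentile was 85.1, against 92.0 for the overlapped wide TRb T3 peaks. In TRb PTU it was lower, at 69.0, against 90.0 for the overlapped wide TRb PTU peaks. Narrower peaks were also overlapped less often at low score. Their overlapped share was 38.8% in the lowest and 91.1% in the top score decile of TRb T3, and 23.3% and 94.1% in those of TRb PTU. The nearest peak of the other list was a median of 12153 bp from the edge of an unpartnered wide TRb T3 peak, against 5500.5 bp for narrower unpartnered TRb T3 peaks, and 7 of the 44 had one within 1 kb (15.9%, against 20.9% of the narrower). For wide TRb PTU peaks the median was 6773 bp, against 6568.5 bp for narrower ones, and 33 of the 184 had one within 1 kb (17.9%, against 18.7% of the narrower).

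The highest-scored unpartnered wide peaks of TRb T3 were 606 bp on chromosome 1 (187794530 to 187795135, score 299.7), 941 bp on chromosome 3 (122072798 to 122073738, score 262.3) and 648 bp on chromosome 1 (52859635 to 52860282, score 170.1). The next, of 600 bp on chromosome 7 (110774630 to 110775229), had no TRb PTU peak within 549367 bp, and the fifth was 705 bp on chromosome 16 (25544069 to 25544773). In TRb PTU they were 609 bp on chromosome 15 (78298696 to 78299304, score 185.2), 1066 bp on chromosome 17 (46872180 to 46873245, score 161.5) and 603 bp on chromosome 19 (7012127 to 7012729, score 153.1). The other two were 683 bp on chromosome 7 (20219861 to 20220543) and 714 bp on chromosome 18 (20716300 to 20717013). At the first of the TRb PTU sites, a TRb T3 peak lay 1710 bp away, so a called neighbour was closer there than at any of the 5 TRb T3 sites.

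Few wide peaks lay at sites also called in livers without tagged receptor, but their share was higher than that of all peaks. A GFP PTU peak overlapped 4 wide TRb T3 peaks (0.688%, interval 0.188 to 1.75%), against 0.101% of all TRb T3 peaks, and 9 wide TRb PTU peaks (0.682%, interval 0.312 to 1.29%), against 0.16% of all TRb PTU peaks. A wide peak offers more bases for this overlap too. The widest peak of each list and the second widest TRb PTU peak, given above, were among these. The GFP PTU list held 107 peaks, of which 2 were 600 bp or more. The highest-scored of these wide sites was that on chromosome 17 given above in both lists. It was followed in TRb T3 by 2 peaks on chromosome 2, of 1052 bp (22442815 to 22443866) and 1071 bp (22444693 to 22445763). In TRb PTU it was followed by 771 bp on chromosome 1 (95375227 to 95375997) and 657 bp on chromosome 17 (3083876 to 3084532).

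Wide peaks had close neighbours more often than narrower ones. Another TRb T3 peak lay within 2 kb of 62.7% of wide TRb T3 peaks (interval 58.6 to 66.6%), against 45.2% of narrower ones and 45.5% of all. Another TRb PTU peak lay within 2 kb of 58.2% of wide TRb PTU peaks (interval 55.5 to 60.9%), against 47.1% of narrower ones and 47.4% of all. The share rose with width below 600 bp as well. In TRb T3 it was 38.4% under 150 bp, 55.3% at 500 to 599 bp and 61.6% at 600 to 799 bp. In TRb PTU these classes stood at 43.2%, 56.7% and 57.1%, so the trait is not particular to wide peaks. Wide peaks were also more common where peaks were dense. In 500 kb windows with more than 40 peaks, 2.14% of TRb T3 peaks were wide (interval 1.72 to 2.63%), against 0.823% in windows with 5 or fewer (interval 0.548 to 1.19%). In TRb PTU these shares were 3.57% (interval 3.22 to 3.94%) and 1.39% (interval 1.01 to 1.87%).

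By chromosome, wide peaks numbered 8.69 per 1000 peaks (chromosome 13) to 15.5 per 1000 (chromosome 11) in TRb T3, and the interval of every chromosome held the common value of 12.8. In TRb PTU they numbered 17.0 per 1000 on chromosome 16 to 32.9 per 1000 on chromosome 7, and the intervals of chromosomes 7, 8 and 11 lay above the common value of 25.7 while those of chromosomes 3, 6 and 16 lay below it. The rate was lower in TRb T3 than in TRb PTU on all 19 chromosomes, which are parts of the same libraries and not replicates. Its ratio, TRb T3 over TRb PTU, ran from 0.351 on chromosome 10 to 0.877 on chromosome 16.

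The windows with the most wide peaks were picked for that number in 1 of the lists, so the contrast between the lists within them is set by the choice and is given as a description. They can be read against 1.28% of all TRb T3 and 2.57% of all TRb PTU peaks being wide. On chromosome 10 from 79500001 to 81000000, adjacent windows joined after their values were seen, 1 of 164 TRb T3 peaks and 22 of 306 TRb PTU peaks were wide. Of those 22, 19 were overlapped by TRb T3 peaks, close to the 86.1% of all wide TRb PTU peaks that were. A window on chromosome 17 from 56000001 to 56500000 held 0 wide among 48 TRb T3 peaks and 7 among 90 TRb PTU peaks, and one on chromosome 8 from 73000001 to 73500000 held 1 among 64 TRb T3 and 8 among 98 TRb PTU peaks. These TRb T3 counts are near what the share over the whole list would give. Among windows picked for TRb T3, that on chromosome 8 from 129000001 to 129500000 held 5 wide among 93 TRb T3 and 3 among 88 TRb PTU peaks, and that on chromosome 19 from 5500001 to 6000000 held 5 among 63 TRb T3 and 6 among 72 TRb PTU peaks. In a block on chromosome 4 from 60000001 to 61500000, where TRb T3 had the more peaks, 0 of 146 TRb T3 and 0 of 42 TRb PTU peaks were wide.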

How the data were processed

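The labels describe 6 mouse liver samples: 3 streptavidin ChIP samples, each with a deposited peak list, and 3 inputs, for which no file was used here. Groups were taken from the sample titles. Each deposited list gives the position of every peak and a score, the authors' peak caller's value, whose statistic the files do not name. Bowtie, SAMtools, MACS2 and build mm9 come from the submitters' processing notes. Which versions, settings and control library were used is not stated there. Without read counts in the lists, depth cannot be given.

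Width was column 3 minus column 2. Overlap meant at least 1 bp shared. A partner could lie anywhere in the other list. Score percentiles were computed within each list over chromosomes 1 to 19. Medians of percentiles carry order-statistic intervals, and shares exact binomial ones, at 95%. Overlap and distance functions were checked on simulated intervals. Python 3.11.15, numpy 2.4.6, pandas 2.3.3, scipy 1.17.1 and matplotlib 3.10.9 were used.

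Named peaks are, per list, the 10 widest, the 10 highest-scored, the 5 highest-scored without a partner and the 3 highest-scored at GFP sites, with those that show the pattern given in full. Members and rules were chosen with earlier results of these data known. Nearest genes, gene lists, marker loci and receptor elements were planned and not run, since the gene and promoter tables at hand are for GRCm38 and the peaks are on mm9. No sequence is printed for the same reason.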

Additional observations from a re-analysis of the deposited data

Results flagged for a closer look

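Wide peaks were also called outside chromosomes 1 to 19, where the comparisons above did not look and where the GFP PTU list had 0 wide peaks. That list held only 107 peaks, of which 2 were wide anywhere, so its 0 says little. The number of all peaks on these sequences is not given here. The counts below are therefore without a share, and no contrast between lists is drawn from them. On the mitochondrial sequence there were 2 in TRb T3, of 3575 and 12514 bp with scores of 7.96 and 8.96, and 4 in TRb PTU, of 784 to 2565 bp with scores of 2.90 to 4.82. All of these scores lay below the lower quartile of their list, 12.04 in TRb T3 and 10.55 in TRb PTU. Chromosome X held 2 wide TRb PTU peaks (693 and 812 bp) and 0 wide TRb T3 peaks. Unplaced sequence held 3 wide TRb PTU peaks of 619 to 988 bp and 0 wide TRb T3 peaks.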

How the results depend on the processing

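No paired analysis was possible because there is 1 library per condition. Alternatives on gene starts and receptor elements were not run, for want of an mm9 reference here. The cause of a move was not tested unless the alternative's construction gives it. Of 54 recomputed values 28 stayed within their interval or within 1.5 times the count. The overlapped share (92.4% in TRb T3, 86.1% in TRb PTU) moved to 83.0% in TRb T3 and 72.5% in TRb PTU for midpoints within 200 bp, and to 85.0% in TRb T3 and 67.4% in TRb PTU for scores at or above the median in both lists, which removes partners. For TRb PTU alone it moved to 82.6% at 500 bp, 89.2% at 800 bp and, added after seeing the data, 88.9% with the score filter on wide peaks alone and 89.3% for its 581 widest peaks. The number of wide peaks moved to 1355 in TRb T3 and 2730 in TRb PTU at 500 bp, and to 123 in TRb T3 and 288 in TRb PTU at 800 bp. The ratio of the numbers, TRb T3 over TRb PTU, was 0.440 and ran from 0.427 to 0.496 over all alternatives for it. The share meeting a wide partner (36.7% in TRb T3, 16.1% in TRb PTU) moved to 52.2% in TRb T3 and 25.6% in TRb PTU with partners of 500 bp or more. With the 581 widest TRb PTU peaks in place of all 1320, a setting added after seeing the data, it was 20.5% in TRb T3 and 20.3% in TRb PTU. Equal numbers of wide peaks make these shares nearly equal by construction, so the setting cannot test a difference between the lists. The other alternatives were chosen after seeing the data: the median score percentile was 89.9 in TRb T3 and 85.1 in TRb PTU at 500 bp, and 93.0 in TRb T3 and 90.6 in TRb PTU at 800 bp. Wide peaks at GFP sites numbered 15 at 500 bp and 3 at 800 bp in TRb PTU. A neighbour of the same list lay within 1 kb of 46.6% of wide TRb T3 and 44.2% of wide TRb PTU peaks, and within 5 kb of 79.9% of wide TRb T3 and 74.6% of wide TRb PTU peaks.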
